A study of Mus musculus with 6 samples.

Results

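Chromatin windows that Runx2 occupied in chondrocytes both with and without interleukin-1β (IL-1β), and that lie between genes, are described here. They were chosen by position alone from the deposited lists of Runx2 windows, 1 list for chondrocytes cultured with IL-1β and 1 for chondrocytes in normal culture, each with 1000 numbered windows of 100 bp on mouse genome build mm9. A window was taken when it overlapped a window of the other list by 1 bp or more, when its centre was over 500 bp from every transcript start named in either list, and when its centre lay inside none of those transcripts. In each list 269 of the 1000 windows met the rule, and they paired one to one into 269 sites, which makes 538 of 2000 windows. No window was left out for a low value, because the lists carry positions and an order but no scores or read counts. The study called far more peaks in each condition than the lists used here hold. A window therefore counts as shared or unshared only with respect to the 1000 windows of the other list.

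The windows came from chromatin immunoprecipitation with sequencing (ChIP-seq) on primary chondrocytes of 5-day-old Runx2-FLAG mice on a C57BL/6 background, in which Runx2 carries a tag of 3 FLAG copies that an anti-FLAG antibody recovers. The cells were cultured for 48 h, either with IL-1β, an inflammatory cytokine of arthritic joints, for 24 h or in normal culture without it. The labels state an IL-1β dose of 1 ng per µL and the study's methods 1 ng per mL. Each condition had 1 anti-FLAG library, set by the authors against 1 input library of the same condition, so no value below has a replicate error, intervals cover counting error only, and differences between the lists are differences between these libraries. The IgG libraries of both conditions were not used here, and the depth of the libraries is unknown.

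Runx2 is the transcription factor that drives chondrocytes towards hypertrophy and is required for bone formation. It binds DNA through its Runt domain, together with the partner subunit CBFβ, at the sequence TGTGGT or TGCGGT, called the Runx motif here, or at its reverse complement ACCACA or ACCGCA. Distal sites of this kind, away from promoters, are where enhancers lie, the elements through which tissue-specific factors act on genes at a distance. A window found in both lists was called in separate libraries, and sequence had no part in the choice, so the letters of the windows are a readout that the rule did not use. The windows of a site overlap between the lists, so their sequences are not independent of each other.

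Sequences are those of the IL-1β windows on the plus strand of mm9, read with positions counted from 1, and each is named for its nearest protein-coding gene. The first set shows high-ranked sites with a Runx motif, which stands in capitals on either strand. They lie near Gpx6, a glutathione peroxidase gene, near Uaca, and between Gm5356 and the HMG-box protein gene Tox3.
Gpx6, chr13:21418896-21418995: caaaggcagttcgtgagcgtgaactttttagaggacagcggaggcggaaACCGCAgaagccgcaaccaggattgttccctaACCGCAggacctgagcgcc
Uaca, chr9:60861086-60861185: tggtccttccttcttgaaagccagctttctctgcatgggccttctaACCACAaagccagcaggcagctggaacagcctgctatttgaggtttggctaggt
Gm5356, chr8:92187945-92188044: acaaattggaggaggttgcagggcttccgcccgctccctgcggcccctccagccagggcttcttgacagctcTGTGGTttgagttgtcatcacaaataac
The Gpx6 window ranked 8 in the IL-1β list and 2 in the normal-culture list, and it held 2 Runx motifs. The Uaca window ranked 6 in the IL-1β list and 10 in the normal-culture list, with 1 motif. The window between Gm5356 and Tox3 ranked 15 in the IL-1β list and 18 in the normal-culture list, also with 1 motif.

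The second set shows sites high in both lists without a Runx motif, with the near-matches TGTGGC and TGCGGC, which differ from it in the last letter, in capitals. They lie at Kdm5a, which encodes a histone demethylase, near Picalm, whose product assembles clathrin coats, near Pmp22, a myelin protein gene, and near Epha2, an ephrin receptor gene.
Kdm5a, chr6:120314204-120314303: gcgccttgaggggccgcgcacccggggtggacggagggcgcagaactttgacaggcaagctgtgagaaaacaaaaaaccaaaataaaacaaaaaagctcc
Picalm, chr7:97208466-97208565: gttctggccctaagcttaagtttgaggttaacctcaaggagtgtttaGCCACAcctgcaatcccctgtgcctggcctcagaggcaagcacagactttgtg
Pmp22, chr11:62928632-62928731: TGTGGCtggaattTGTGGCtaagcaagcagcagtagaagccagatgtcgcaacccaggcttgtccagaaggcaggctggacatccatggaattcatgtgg
Epha2, chr4:140842910-140843009: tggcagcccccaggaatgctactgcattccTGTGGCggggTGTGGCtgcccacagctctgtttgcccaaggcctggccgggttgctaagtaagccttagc
Kdm5a held rank 1 in both lists. Its window held neither the Runx motif nor the near-match, and ended in a stretch rich in A. The Picalm window ranked 4 in the IL-1β list and 17 in the normal-culture list and held 1 near-match, and the Pmp22 window ranked 5 with IL-1β and 16 in normal culture and held 2. The Epha2 window, shown because it holds the near-match too, ranked 34 with IL-1β and 15 in normal culture and held 2. Of the 10 sites with the lowest mean rank, 6 held a Runx motif in the IL-1β window and 5 in the normal-culture window, and 4 held it in neither. The ninth of them, at rank 11 with IL-1β and 24 in normal culture, lay in an intron of Atp1a4, a sodium pump gene, and held a motif in both windows.

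The Runx motif was present in 176 of 269 windows of the IL-1β list, 65.4% (95% Wilson interval 59.6 to 70.9), and in 188 of 269 of the normal-culture list, 69.9% (64.2 to 75.1). Over all 1000 windows of a list the shares were 59.3% in the IL-1β list and 63.2% in the normal-culture list. In flanks, 100 bp windows at 1000 bp to each side of the same sites, 7.25% of 538 held the motif around the IL-1β windows and 5.95% of 538 around the normal-culture windows. Of 25572 windows of a regular grid over the genome, 1 every 100000 bp, 7.46% held it. At the level of sites, 157 held the motif in both windows, 19 only in the IL-1β window, 31 only in the normal-culture window and 62 in neither, so that 207 of 269 (77.0%) held it in at least 1.

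Most windows held a single copy of the motif. In the IL-1β list 137 windows had 1 match, 35 had 2 and 4 had 3, and in the normal-culture list 137 had 1, 46 had 2 and 5 had 3. The form TGTGGT made up 76.7% of 219 matches in the IL-1β list and 77.9% of 244 in the normal-culture list. The letter after the motif was T in 53.4% of the matches of the IL-1β list and 57.4% of those of the normal-culture list, which gives the longer forms TGTGGTT and TGCGGTT. It was A in 7.31% of the matches of the IL-1β list and 6.15% of those of the normal-culture list. Matches gathered at the centre of the windows. In the IL-1β list 66.2% of the matches lay within 25 bp of the centre, and in the normal-culture list 63.9%. That span takes up a large part of the 100 bp window, so these shares alone say little. In bins of 20 bp, the bin just right of the centre held a motif in 22.7% of the IL-1β windows and 23.8% of the normal-culture windows. The bins at the left and right window edges held one in 8.92% and 7.43% of the IL-1β windows, and in 10.04% and 9.67% of the normal-culture windows.

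**Figure D1:**
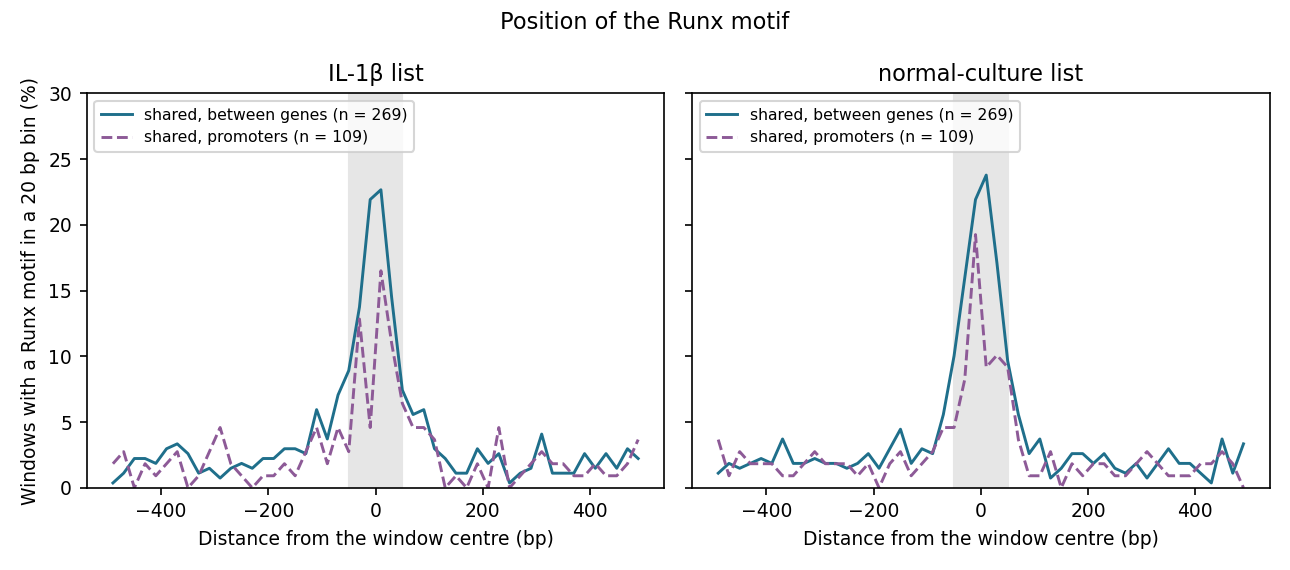
Share of windows with a Runx motif in each 20 bp bin, against the distance of the bin from the window centre, for the shared windows between genes (solid) and the shared promoter windows (dashed), with the 100 bp window in grey. The solid curves reach 22.7% in the IL-1β list and 23.8% in the normal-culture list beside the centre, and stay below 6% beyond 100 bp from it.

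Set against other windows of the same list, the shared windows between genes differed most from promoters. Their Runx motif share exceeded that of the 109 shared windows within 500 bp of a transcript start, 44.0% in the IL-1β list and 45.9% in the normal-culture list, by 21.4 points (Newcombe 95% interval 10.3 to 31.9) in the IL-1β list and 24.02 points (13.1 to 34.4) in the normal-culture list. With windows within 5000 bp of a start counted as promoters, the difference in the IL-1β list was 10.09 points (0.299 to 19.8). From the 173 shared windows inside genes, of which 71.7% in the IL-1β list and 72.3% in the normal-culture list held the motif, they differed by -6.25 points (-14.8 to 2.71) in the IL-1β list and -2.37 points (-10.8 to 6.42) in the normal-culture list, and both intervals include 0. Distal windows without a partner among the 1000 of the other list held the motif in 56.8% of 382 in the IL-1β list and 62.8% of 355 in the normal-culture list. These unshared windows lay over 500 bp from every named start but could lie inside a named transcript as well as between genes. The comparison with them therefore also mixes position. The shared windows between genes exceeded them by 8.62 points (0.995 to 16.0) in the IL-1β list and by 7.07 points (-0.446 to 14.4) in the normal-culture list, so only the first interval excludes 0. The difference from the unshared windows goes with rank, since the shared windows between genes had a median rank of 335 in the IL-1β list and 389 in the normal-culture list, against 683 in the IL-1β list and 674 in the normal-culture list for the unshared ones, and the part of rank in it was not tested. The interval for the IL-1β list includes 0 with a T or C required after the motif (7.64 points, -0.159 to 15.3), with a distance of 5000 bp from starts (6.48 points, -1.60 to 14.3), and within the first 500 windows of each list (8.26 points, -2.26 to 18.3). With at least 50 bp of overlap required of a shared window, it was 14.7 points (6.93 to 22.1).

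Along the ranks of the IL-1β list, 80% of the 80 windows at ranks 1 to 200 held the motif (Wilson interval 69.95 to 87.3), 63.0% of the 73 at ranks 201 to 400 (51.5 to 73.2), 50.9% of the 53 at ranks 401 to 600 (37.9 to 63.9), 64.1% of the 39 at ranks 601 to 800 (48.4 to 77.3) and 58.3% of the 24 at ranks 801 to 1000 (38.8 to 75.5). In the normal-culture list the share was 73.6% of 72 at ranks 1 to 200 (62.4 to 82.4), 69.7% of 66 at ranks 201 to 400 (57.8 to 79.4), 70.4% of 54 at ranks 401 to 600 (57.2 to 80.9), 70% of 50 at ranks 601 to 800 (56.2 to 80.9) and 59.3% of 27 at ranks 801 to 1000 (40.7 to 75.5), intervals that overlap. The 207 sites with a motif had a median rank of 311 in the IL-1β list and 376 in the normal-culture list, and the 62 without one 389.5 in the IL-1β list and 418 in the normal-culture list.

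Among windows without a Runx motif, words 1 letter away from it were counted, a search chosen after the sequences had been seen. TGTGGC was the most frequent. It was present in 26.9% of the 93 such windows of the IL-1β list (Wilson interval 18.9 to 36.7), against 5.01% of 499 flanks that also lack the motif, and in 35.8% of the 81 of the normal-culture list (26.2 to 46.7), against 5.53% of 506 flanks. TGTGGG followed, in 23.7% of windows and 8.42% of flanks in the IL-1β list and in 25.9% of windows and 6.92% of flanks in the normal-culture list. TGCGGC was found in 11.8% of the windows and 1.20% of the flanks in the IL-1β list, and in 13.6% of the windows and 1.19% of the flanks in the normal-culture list. Of the 62 sites without a Runx motif in either window, 33 held TGTGGC or TGCGGC and 29 did not. With these forms counted as Runx motifs, 78.4% of the IL-1β windows and 83.6% of the normal-culture windows held one, against 13.01% of the flanks in the IL-1β list and 12.3% in the normal-culture list. The share over all 1000 windows was 72.6% in the IL-1β list and 76.6% in the normal-culture list, so most of this excess over flanks is common to the whole lists.

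Windows with 3 motifs show how close copies can stand. Of the 4 IL-1β windows with 3, those between Olfr1505 and Tle4, near Epn2, whose product acts in endocytosis, and near Xpr1, a phosphate exporter gene, are printed with their motifs in capitals.
Olfr1505, chr19:14254744-14254843: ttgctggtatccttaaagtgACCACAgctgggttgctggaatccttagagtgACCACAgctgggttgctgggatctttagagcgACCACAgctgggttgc
Epn2, chr11:61416352-61416451: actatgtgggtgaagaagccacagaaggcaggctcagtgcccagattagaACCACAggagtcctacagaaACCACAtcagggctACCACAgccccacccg
Xpr1, chr1:157120249-157120348: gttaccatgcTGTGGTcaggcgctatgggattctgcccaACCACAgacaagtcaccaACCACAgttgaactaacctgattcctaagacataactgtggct
The site between Olfr1505 and Tle4 ranked 182 in the IL-1β list and 42 in the normal-culture list. Its 3 motifs lay on the same strand exactly 32 bp apart, and the first 26 bases of 2 neighbouring units shared 24 letters, so the window is a short tandem repeat whose unit carries a Runx motif. At Epn2 the 3 motifs, at 20 and 14 bp from each other, also lay on the same strand, and the site ranked 229 in the IL-1β list and 223 in the normal-culture list. At Xpr1 the spacing was 29 and 18 bp and the strands differed, with ranks of 133 with IL-1β and 273 in normal culture. The site near Sod3, the gene of the superoxide dismutase of the extracellular matrix, had 1 motif in the IL-1β window and 3 in the normal-culture window, and the site between Psmd7, a proteasome gene, and Zfhx3 had 2 in the IL-1β window and 3 in the normal-culture window.

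Next to the Runx motif, both strands were also searched for the consensus letters of 14 further factor families. TEAD (GGAATG), the site of the partners of YAP, was present in 14.5% of the IL-1β windows (Wilson interval 10.8 to 19.2) and 15.2% of the normal-culture windows (11.4 to 20.02). The flanks held it in 5.95% around the IL-1β windows and 5.58% around the normal-culture windows. In the IL-1β list, NFI (TTGGCA) was present in 9.67% of windows and 4.46% of flanks. AP-1 (TGACTCA or TGAGTCA), the site of Fos and Jun proteins, was present there in 8.18% of windows (5.46 to 12.1) and 2.42% of flanks. STAT (TTCNNNGAA) was found in 6.69% of windows and 3.16% of flanks, and the GC box (GGGCGGG) in 4.83% of windows and 1.30% of flanks. These motifs stood close to the same levels in the normal-culture list, NFI with 10.04% of windows and 5.20% of flanks, AP-1 with 7.06% of windows (4.57 to 10.8) and 2.60% of flanks, STAT with 6.69% of windows and 2.79% of flanks and the GC box with 5.20% of windows and 1.49% of flanks. For these 5 motifs, for the Runx motif and for CTCF, the Newcombe interval of the difference between windows and flanks excluded 0 in both lists, 7 of 15 motifs in each. Over all 1000 windows of the IL-1β list, TEAD was present in 11.7%, NFI in 9%, AP-1 in 6.1%, STAT in 4.5% and the GC box in 6.5%. Over all 1000 of the normal-culture list the shares were 12.9%, 8.4%, 6.5%, 3.4% and 7.4% in the same order. The GC box thus stood below its share of the whole list in both lists, and the other motifs of this series above theirs. Except for STAT in the normal-culture list (interval 4.27 to 10.3), each whole-list share lay inside the Wilson interval of the windows between genes. The whole lists include the windows between genes, and these differences were not tested. The remaining motifs were CRE (TGACGTCA), SOX (ACAATGG or ACAAAGG), ETS (CCGGAAG or CAGGAAG), CEBP (TTGCNNAA), FOX (TGTTTAC), homeobox (TAATTA), E-box (CAGCTG or CACGTG) and NF-κB. The NF-κB motif was found in 0 of 269 IL-1β windows, which allows a share of up to 1.12% (3 counts of the total, the limit used for every count of 0), and in 1 of 269 normal-culture windows. It was rare in every set, with 2 of all 1000 windows of each list and 2 of 538 flanks of each list.

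The motifs that set these windows apart from shared promoter windows went both ways. In the IL-1β list ETS was found in 3.72% of the windows between genes and 17.4% of those at promoters (difference -13.7 points, -22.1 to -7.03), and in the normal-culture list in 4.83% of those between genes and 21.1% of those at promoters (-16.3 points, -25.1 to -8.90). The GC box differed by -19.0 points (-28.0 to -11.3) in the IL-1β list and -15.0 points (-23.7 to -7.71) in the normal-culture list. TEAD was more frequent between genes by 8.99 points (1.95 to 14.6) in the IL-1β list and 8.82 points (1.51 to 14.6) in the normal-culture list, and AP-1 by 8.18 points (3.82 to 12.1) in the IL-1β list and 6.15 points (1.35 to 9.93) in the normal-culture list. Of 15 motifs, 7 had an interval that excluded 0 against promoters in the IL-1β list and 8 in the normal-culture list. Against shared windows inside genes the count was 0 in the IL-1β list and 1 in the normal-culture list, the GC box, and against unshared distal windows 2 (Runx and CTCF) in the IL-1β list and 1 (STAT) in the normal-culture list. These intervals are not adjusted for the number of motifs. The base composition went the same way. The windows between genes had a median GC content of 51% in both lists and a median of 1 CpG, while shared promoter windows had 65% GC in the IL-1β list and 63% in the normal-culture list, with a median of 9 CpGs in both. The flanks had a median GC content of 46% around the IL-1β windows and 45% around the normal-culture windows, and the grid 42%. The part of base composition in the differences from flanks and grid was not tested.

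**Figure D2:**
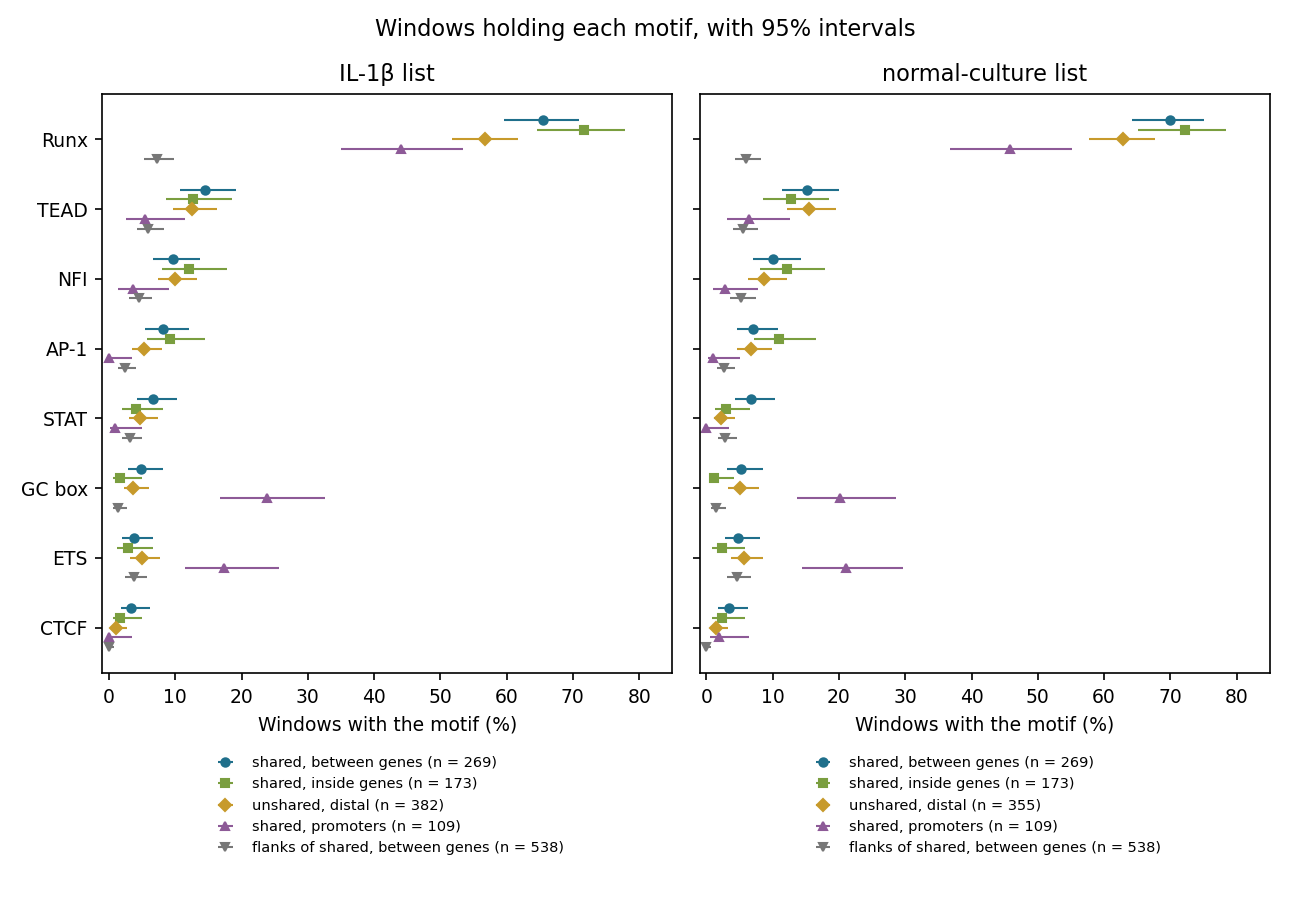
Share of windows that hold each of 8 motifs in the IL-1β list (left) and the normal-culture list (right), for the shared windows between genes, the compared windows of the same list and the flanks, with Wilson 95% intervals as bars. The Runx motif stands at 65.4% (IL-1β) and 69.9% (normal culture) of the shared windows between genes and at 7.25% (IL-1β) and 5.95% (normal culture) of their flanks, while ETS and the GC box are most frequent at promoters.

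CTCF, the factor that anchors chromatin loops, has a long consensus that is rare by chance, and 9 of 269 windows of each list held it (3.35%, 1.77 to 6.24), against 0 of 538 flanks, which allows a share of up to 0.558%, and 0.0547% of the grid. Over all 1000 windows the share was 1.60% in the IL-1β list and 2.10% in the normal-culture list. The windows between genes with a match belong to 11 sites, and each of the 11 also held a Runx motif in at least 1 window, as did 77.0% of all 269 sites. The windows near Cacna2d1, which encodes an auxiliary subunit of calcium channels, and Wisp3, a gene of the CCN family of matricellular proteins, are shown as the members with the lowest mean rank over both lists among those with the match in both windows, with the CTCF match in capitals.
Cacna2d1, chr5:15344096-15344195: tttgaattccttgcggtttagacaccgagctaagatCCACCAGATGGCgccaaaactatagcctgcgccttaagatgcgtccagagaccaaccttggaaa
Wisp3, chr10:38891680-38891779: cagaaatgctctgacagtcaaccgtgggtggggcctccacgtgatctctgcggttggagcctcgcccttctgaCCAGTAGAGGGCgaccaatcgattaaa
The Cacna2d1 site lay 96.4 kb from its transcription start site (TSS) and ranked 57 in the IL-1β list and 38 in the normal-culture list. The Wisp3 site lay 8.13 kb from its TSS and ranked 189 with IL-1β and 387 in normal culture. In each window the Runx motif stands apart from the CTCF match, at tgcggt.

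Another long element was noticed in the windows that rank highest without a Runx motif, and was searched after they had been seen. It is RE1, the site of the repressor REST, which silences neuronal genes outside the nervous system. With at least 17 of its 21 letters required, RE1 was found in 3 windows of each list (1.12%), at the same 3 sites, against 0 of 538 flanks in each list and 0 of 25572 grid windows, which allows a share of up to 0.0117%. The match is in capitals.
Trappc9, chr15:72399098-72399197: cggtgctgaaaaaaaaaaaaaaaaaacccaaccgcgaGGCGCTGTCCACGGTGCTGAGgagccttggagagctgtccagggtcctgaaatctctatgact
Gm16532, chr7:6362923-6363022: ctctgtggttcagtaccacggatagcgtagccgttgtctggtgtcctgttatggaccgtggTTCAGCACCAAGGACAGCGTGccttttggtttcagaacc
BC018242, chr9:21754928-21755027: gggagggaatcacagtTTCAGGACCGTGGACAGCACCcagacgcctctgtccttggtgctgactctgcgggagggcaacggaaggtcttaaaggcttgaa
The site between Kcnk9, a potassium channel gene expressed in neurons, and Trappc9 ranked 3 in the IL-1β list and 11 in the normal-culture list and matched 19 of the 21 letters. The site at Gm16532, 15.2 kb from Zfp28, ranked 14 with IL-1β and 19 in normal culture and matched 18 letters. The site between BC018242 and 2310047B19Rik ranked 32 in the IL-1β list and 200 in the normal-culture list and matched 18 letters. The Runx motif was absent from both windows of the first and the third of these sites. Outside the shared windows between genes, RE1 was found in 4 of 173 shared windows inside genes in each list (2.31%), and in 5 of 382 unshared distal windows of the IL-1β list and 1 of 355 of the normal-culture list. Over all 1000 windows it was found in 12 of the IL-1β list (1.20%) and 8 of the normal-culture list (0.800%), so its share in the windows between genes is near that of the lists.

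The ranks of the sites spanned both lists and are given as a description, since membership of the lists chose the sites. The median rank was 335 in the IL-1β list (quartiles 174 and 571, highest number 988) and 389 in the normal-culture list (184 and 626, highest number 990). Of all windows, 55.1% of the IL-1β list and 55.1% of the normal-culture list overlapped one of the other list, a share that the rule used. Of the first 10 windows, 7 of the IL-1β list and 3 of the normal-culture list were shared between genes, and of the first 100, 39 of the IL-1β list and 42 of the normal-culture list. The rank was lower in number, that is nearer the top, in the IL-1β list for 144 sites, in the normal-culture list for 124 and equal for 1, and the median difference in either direction was 148 places. A difference of at most 100 places was seen at 97 sites and of more than 500 at 17.

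**Figure D3:**
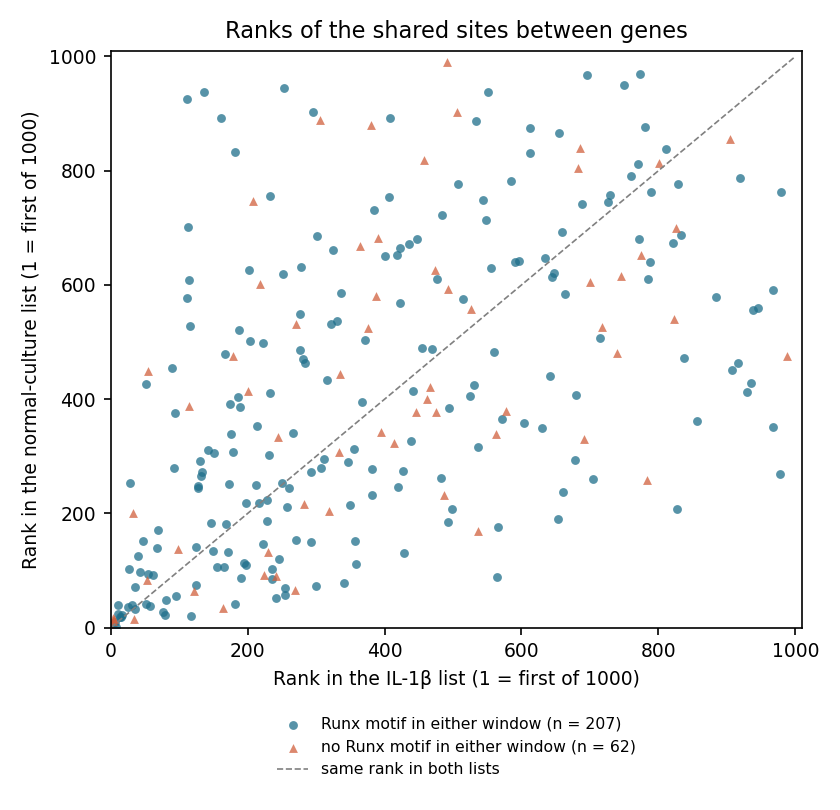
Each of the 269 shared sites between genes by its rank in the IL-1β list (horizontal) and in the normal-culture list (vertical), with circles for the 207 sites with a Runx motif in either window and triangles for the 62 without. Points lie on both sides of the line of equal rank, with 144 above it, nearer the top of the IL-1β list, and 124 below it.

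Sites that ranked nearer the top of the IL-1β list by the most places lay in 8030462N17Rik (rank 112 in the IL-1β list, 926 in the normal-culture list), near 2810405K02Rik (137 with IL-1β, 937 in normal culture) and near Slc12a9, a gene of the cation-chloride cotransporter family (161 with IL-1β, 892 in normal culture). Those that ranked nearer the top of the normal-culture list lay near Ppargc1a, a coactivator gene of mitochondrial biogenesis (978 in the IL-1β list, 269 in the normal-culture list), near 1700012B15Rik (827 with IL-1β, 207 in normal culture), and between Odf2l and the fibrillar collagen gene Col24a1 (967 with IL-1β, 352 in normal culture). Slc12a9 held a Runx motif only in the IL-1β window, and 1700012B15Rik and Odf2l only in the normal-culture window, where 2 were present at each. At the others the count did not differ between the lists, with 1 motif in each window at 8030462N17Rik and Ppargc1a and 2 in each at 2810405K02Rik. Whether a rank difference of this size exceeds the error of a rank cannot be told from 1 library per condition.

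The windows of a site overlapped by a median of 80 bp (quartiles 62 and 92) and their centres lay a median of 20 bp apart. The smallest overlaps that passed were 2 bp, at a site 534 kb from Cdh11, and 6 bp, near Creb5. The IL-1β windows that came nearest without overlap, near Polr1a and Mrps18a, missed a window of the other list by 4 and 5 bp, and 25 unshared IL-1β windows between genes lay within 100 bp of one. At the other limit, the windows of the Plcl2 site were the nearest to a named transcript start, at 630 bp in the IL-1β list and 539 bp in the normal-culture list, while windows at Dscr3 (482 bp) and Hmg20b (495 bp) fell just outside the rule. Between genes, the windows at Exog lay 287 bp (IL-1β) and 338 bp (normal culture) beyond the nearest named transcript, while those at Sfpi1 reached 511 bp (IL-1β) and 523 bp (normal culture) into one.

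The rule knew only the 1352 transcripts named in the lists. Against GENCODE M1, the mm9 annotation of all genes, 236 of the 269 sites lay between protein-coding genes, 19 in an intron, 1 in an exon and 13 within 500 bp of a protein-coding TSS. The last group includes Kdm5a, whose TSS is 0.104 kb from the window, Gm16532 (0.014 kb) and Nfkb2 (0.428 kb). A Runx motif in either window was found at 186 of the 236 sites between genes (78.8%, 73.2 to 83.5), 14 of 19 in introns (73.7%, 51.2 to 88.2) and 7 of 13 at a TSS (53.8%, 29.1 to 76.8). Counted over all 269 sites, 13 overlapped a non-coding gene of the annotation. The gene named for a site differed between the lists at 41 sites.

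The median distance from a site to the nearest protein-coding TSS was 32.9 kb, with quartiles of 9.80 and 85.5 kb, and that of the grid was 49.7 kb. The grid was not put through the rule, which itself keeps sites away from the starts and transcripts named in the lists, so these distances are a description. A TSS lay within 10 kb of 26.4% of the sites and 21.03% of the grid, and within 100 kb of 77.7% of the sites and 64.0% of the grid. Over 500 kb from any TSS were 4 sites, 1.49%, against 9.01% of the grid. The most remote site, between Fam19a2 and the monocarboxylate transporter gene Slc16a7, lay 959 kb from the nearest TSS (rank 788 in the IL-1β list, 640 in the normal-culture list). Next was the site 757 kb from Pkdcc, the gene of a secreted kinase needed for skeletal growth, at rank 96 with IL-1β and 56 in normal culture. The third lay 686 kb from the TSS of Cdh11, which encodes a mesenchymal cadherin, at rank 564 with IL-1β and 89 in normal culture. Of the 236 sites between GENCODE genes, 141 (59.7%, 53.4 to 65.8) lay upstream of the nearest gene and 95 downstream, and 52.2% of 15513 grid positions between genes lay upstream.

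**Figure D4:**
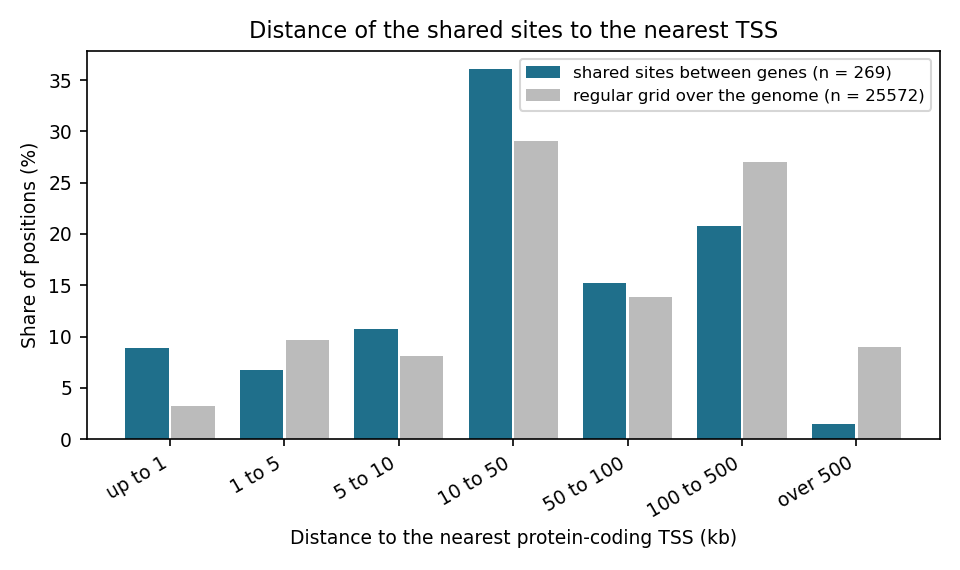
Share of the 269 shared sites between genes (blue) and of 25572 regular grid positions (grey) in each class of distance to the nearest protein-coding TSS of GENCODE M1. The sites are more frequent than the grid up to 1 kb (8.92% of sites, 3.22% of the grid) and at 10 to 50 kb (36.1% of sites, 29.1% of the grid). They are less frequent at 1 to 5 kb (6.69% of sites, 9.66% of the grid) and beyond 500 kb (1.49% of sites, 9.01% of the grid).

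The nearest protein-coding genes of the 269 sites were 262 genes, 1.18% of the 22208 protein-coding genes of the annotation outside chromosome Y and the mitochondrial genome, and 7 genes were nearest to 2 sites each. Of the cartilage matrix list, 4 of 38 genes (10.5%) were nearest to a site, and the best known are shown with their sequence. The counts were not corrected for the length of the sequence around each gene, and the lists were drawn up with earlier results of these data known. Acan encodes aggrecan, the main proteoglycan of cartilage, and Col11a1 a chain of the thin cartilage fibrils. Csf1, the growth factor gene of macrophages and osteoclasts, and Cx3cl1, which encodes fractalkine, come from the list of IL-1 and NF-κB genes. Runx motifs are in capitals.
Acan, chr7:86135418-86135517: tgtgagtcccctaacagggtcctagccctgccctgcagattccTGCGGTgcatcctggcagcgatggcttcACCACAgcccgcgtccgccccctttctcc
Col11a1, chr3:113731218-113731317: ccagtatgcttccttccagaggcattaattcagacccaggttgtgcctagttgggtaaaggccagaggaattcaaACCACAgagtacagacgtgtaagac
Csf1, chr3:107572772-107572871: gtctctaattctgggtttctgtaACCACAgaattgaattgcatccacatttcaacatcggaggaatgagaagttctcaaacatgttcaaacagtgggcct
Cx3cl1, chr8:97312196-97312295: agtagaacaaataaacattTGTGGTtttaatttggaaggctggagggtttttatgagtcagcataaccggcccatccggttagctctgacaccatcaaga
The Acan site lay 62.9 kb from its TSS and 70.2 kb from Isg20 on the other side, ranked 212 in the IL-1β list and 250 in the normal-culture list, and held 2 Runx motifs in each window. The Col11a1 site, 2.19 kb from its TSS, ranked 644 with IL-1β and 614 in normal culture with 1 motif. The site in an intron of Col6a3, a collagen VI gene, ranked 382 with IL-1β and 277 in normal culture. The site 77.1 kb from Xylt1, the enzyme that starts glycosaminoglycan chains, ranked 476 with IL-1β and 610 in normal culture, with a motif in the normal-culture window only.

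Of the other lists of cartilage and bone, 3 of 32 hypertrophy and bone genes (9.38%, against 1.18% of all protein-coding genes) were nearest to a site. The limits given for the counts of the cartilage matrix list hold for this list and for those below. The site 61.2 kb from Dlx6, a homeobox gene of the developing skeleton, ranked 261 in the IL-1β list and 244 in the normal-culture list and held 2 Runx motifs in each window. The site between Ccdc12 and Pth1r, the receptor gene through which parathyroid hormone-related protein holds back hypertrophy, ranked 271 with IL-1β and 532 in normal culture and held none. The site between Mepe and the osteopontin gene Spp1 ranked 938 with IL-1β and 557 in normal culture, with an overlap of 11 bp between its windows and a motif in the normal-culture window only. Of 35 collagen fibril genes 1 (2.86%) was nearest to a site, Col5a3, at 4.57 kb, with rank 555 with IL-1β and 630 in normal culture.

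Of 46 chondrocyte and Runx transcription factor genes, 3 (6.52%, against 1.18% of all protein-coding genes) were nearest to 4 sites. Tle1 and Tle4 encode Groucho corepressors, which Runx proteins recruit through a motif at their carboxyl end. The Tle1 site lay 116 kb from the gene and ranked 43 in the IL-1β list and 98 in the normal-culture list. Tle4 had sites at 31.0 kb and 22.7 kb on its opposite sides, with ranks 222 and 494 in the IL-1β list and 146 and 385 in the normal-culture list, and the tandem repeat printed above lies on the same side as the first, 268 kb from the gene. The site 18.3 kb from Fos, the AP-1 subunit gene, ranked 770 in the IL-1β list and 812 in the normal-culture list.

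Of 54 genes that respond to or carry IL-1 and NF-κB signals, 3 (5.56%, against 1.18% of all protein-coding genes) were nearest to a site. The Csf1 site, 9.44 kb from the TSS, ranked 47 in the IL-1β list and 151 in the normal-culture list, and the Cx3cl1 site, 16.1 kb from the TSS and 22.1 kb from Ccl17, ranked 115 with IL-1β and 609 in normal culture. The site at Nfkb2, the gene of the p100 and p52 subunits of NF-κB, lay 0.428 kb from the TSS and ranked 118 in the IL-1β list and 21 in the normal-culture list. Each of the 3 held a Runx motif in both windows. Csf1 and Cx3cl1 stood nearer the top with IL-1β, and Nfkb2 nearer the top in normal culture. Of 66 signalling genes 2 (3.03%) were nearest to a site, and neither site held a Runx motif. Smad6, an inhibitor of BMP signalling, had rank 282 with IL-1β and 217 in normal culture, and Irs1, an insulin receptor substrate, 492 with IL-1β and 593 in normal culture.

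Markers of other cells that a chondrocyte culture could hold were looked up only as nearest genes. None of 7 skeletal muscle, 6 leukocyte, 5 endothelial and 4 adipocyte markers was nearest to a site, and of 9 fibroblast markers 1 was, Cdh11, at the remote site given above. Over all protein-coding genes the share nearest to a site was 1.18%, so finding none among so few markers carries little weight. Sfpi1, 1 of the leukocyte markers, had a window in each list (rank 56 with IL-1β, 20 in normal culture). Both fell outside the rule because they lay inside a named transcript. Position near a gene does not show in which cells a site was occupied.

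Some sites lay within 20 kb of each other. The closest pair, 1.99 kb apart, lay 136 kb and 138 kb from Cdkn2b, the gene of the cell cycle inhibitor p15, on the side of Dmrta1. The first site of the pair ranked 62 in the IL-1β list and 93 in the normal-culture list and the second 655 with IL-1β and 866 in normal culture, and each held 1 Runx motif in both windows. Another pair lay 3.93 kb apart near D0H4S114, with ranks 202 and 165 in the IL-1β list and 627 and 106 in the normal-culture list.

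Few of the windows were repeated sequence. The median copy number of their 32 bp words in the genome was above 1 in 7 of the 269 windows of the IL-1β list and 6 of the normal-culture list, at 10 sites. Over all 1000 windows the count was 28 in the IL-1β list and 14 in the normal-culture list. The 3 with the lowest mean rank were in an intron of Cbx7, a Polycomb gene (16 in the IL-1β list, 23 in the normal-culture list), 125 kb from Serp2 (53 with IL-1β, 84 in normal culture) and 3.25 kb from Ncrna00085 (125 with IL-1β, 74 in normal culture), and these windows hold long CA or GT repeats.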

How the data were processed

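Reads were aligned to mm9 with Bowtie2 2.2.2 per the submitters' processing notes, and the authors called peaks with CisGenome 2.0, each anti-FLAG library against the input of its condition, without pooling. The deposited lists hold 100 bp windows with a running number, taken as the authors' order, and a nearest transcript. No score, count or depth is given, so no depth correction was possible. The chromosome code 20 of the transcripts was read as X.

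Overlaps, motifs and intervals (Wilson and Newcombe, 95%; for counts of 0, 3 counts of the total) were computed in Python 3.11.15 with pandas 2.3.3, statsmodels 0.14.6 and pysam 0.24.0, and tested on simulated data. Genes came from GENCODE M1 (NCBIM37, the mm9 assembly). Of 1352 deposited transcripts, 85.6% start within 50 bp of an annotated start. Windows were called repeated from the genome copy number of their 32 bp words (numba 0.67.0). The named sites are the 10 with the lowest mean rank, up to 6 per gene list, the 3 most remote, the 3 with the largest rank differences each way, groups within 20 kb, up to 5 with the most Runx motifs, up to 3 with repeated sequence, and those next to the thresholds. The CTCF, RE1 and Epha2 sites were picked with their values known. Some sites that the rule names are not reported here. The members and gene lists were chosen with earlier results of these data known.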

Additional observations from a re-analysis of the deposited data

How the results depend on the processing

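The number of sites, the motif shares, the GC content and the distance to a TSS were recomputed under other settings, of which 1 was chosen after seeing the data (near-matches counted as Runx motifs). Of 107 values, 90 counted as kept. Such differences kept their direction and their side of 0, and such shares and medians stayed within the interval of the reported value. The number of sites has no interval, and counted as kept at 220, 223, 246 and 259 sites. Within windows 1 to 500 of each list the count fell to 137 sites, because fewer windows enter, and the Runx motif share of the IL-1β list was 71.5%. The longer motif (a T or C after the Runx motif) gave 55.0% in the IL-1β list and 59.5% in the normal-culture list, a search of 200 bp 79.6% with IL-1β and 80.3% in normal culture, and the widened motif 78.4% with IL-1β and 83.6% in normal culture. The difference from unshared distal windows in the IL-1β list no longer excluded 0 at 5000 bp from starts (6.48 points), within the first 500 windows (8.26 points) and with the longer motif (7.64 points). It was 14.7 points with at least 50 bp of overlap. In the normal-culture list it excluded 0 with the longer motif (9.34 points), with coordinates counted from 0 (7.73 points) and with the widened motif (7.02 points). The difference from promoters in the IL-1β list was 10.09 points at 5000 bp from starts. The difference from shared windows inside genes in the normal-culture list turned positive, with 0 inside the interval, under every gene of the annotation (2.49 points), within the first 500 windows (0.0978 points) and with the widened motif (3.87 points). The cause of these changes was not tested. No analysis paired by library was possible because each condition has 1 library. The intervals for windows against flanks treat them as independent, although the flanks lie beside the same windows. With no read counts, no depth limit can be given.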
